A study of Mus musculus with 16 samples.

Results

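B cells that carry the AM14 antigen receptor, which binds IgG, were profiled before and 6 h after the addition of PL2-3, a monoclonal IgG against chromatin that AM14 cells take up together with the DNA and RNA bound to it. The response described here is the difference between the arrays labelled 6 h and those labelled 0 h in 4 genotypes of AM14 splenic B cells. These are wild type (WT), Tlr7-/-, Tlr9-/- and Tlr7/9-/-, the last lacking both receptors. Cells at 0 h were unstimulated, and cells at 6 h had been cultured with PL2-3. The 8 arrays were chosen by their labels, 1 for each genotype and time, out of 16 arrays in the series. The other 8, from 24 h and 42 h, were not used. The 4 genotypes stand in for replicates: p-values measure the spread of the response between genotypes, and no genotype has a replicate array of its own. Since every 6 h array came from cells given PL2-3, its effect and that of 6 h in culture cannot be told apart. The sources used here do not give the dose of PL2-3, the purity of the cells, the age and sex of the mice, or any pooling over them.

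Signals from the B cell antigen receptor pass through the kinases LYN and SYK and phospholipase C to the calcium, NF-kB and MAP kinase pathways. TLR7 and TLR9 sit in endosomes, bind RNA and DNA respectively, and signal through MYD88 to NF-kB and the interferon regulatory factors. An AM14 cell that binds chromatin through its antigen receptor can therefore receive signals at the cell surface and, where the receptors are present, in endosomes. A resting B cell that receives such signals leaves quiescence, enlarges, makes ribosomes and lipids, and changes its adhesion molecules before it copies its DNA.

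Each array carried a sample labelled with Cy5 beside a pool of RNA from unstimulated AM14 B cells of all genotypes labelled with Cy3, and levels are log2 ratios of sample to pool. A change is the level at 6 h minus the level at 0 h, so a change of 1 is 2-fold. The share of probes well above background in Cy5 ran from 37.4% (Tlr9-/- at 0 h) to 56.4% (Tlr7/9-/- at 6 h), and the other 6 arrays lay between 47% and 50.6%. The Tlr9-/- array at 0 h also had the most spots with an outlier flag, 550 against 274 to 355 on the others. WT and Tlr7-/- shared 1 slide and scan, and Tlr9-/- and Tlr7/9-/- shared the other. Tlr7 lay at 0.95, -0.73, 0.32 and -0.58 at 0 h and at 1.48, -0.02, 1.07 and 0.12 at 6 h in WT, Tlr7-/-, Tlr9-/- and Tlr7/9-/-, the order kept in every list of 4 values here. On the probe used it was lower in the 4 arrays that lack Tlr7 (-0.30 ± 0.42, SD) than in the 4 that have it (0.96 ± 0.48, SD). The groups did not overlap (two-sided exact permutation test over arrays, p = 0.0286, the smallest for 4 against 4). Here and for Tlr9 the test counts the 0 h and 6 h arrays of a genotype as separate, so it does not measure the spread between genotypes. Another probe lay at 0.87, -1.23, -0.05 and -1.09 at 0 h and at 1.87, -0.03, 1.27 and -0.07 at 6 h. There the groups overlapped over the 8 arrays but not within a time. The remaining probe was well above background on only 2 arrays. Tlr9 lay at -0.23 ± 0.27 (SD) in the 4 arrays that lack it and at -0.12 ± 0.13 (SD) in the other 4 (two-sided exact permutation test, p = 0.571). The sources do not say which part of Tlr9 is deleted, so its probe is no check of the labels.

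Of 19481 genes and unnamed transcripts tested, 11720 (60.2%) changed between 0 h and 6 h (limma with genotype as a block, Benjamini-Hochberg adjusted p under 0.05). They divided into 5702 that rose (29.3%) and 6018 that fell (30.9%), the shares against which counts of list members are read. Of the called genes 98.4% had the same sign in all 4 genotypes, against 13310 of all 19481 genes tested. A call itself favours changes that agree, so the 98.4% is largely set by the calling. The median change over all genes was -0.02. With median centring in place of loess that median lay at 0.29, and the share of rises among the called genes was 74.7% in place of 48.7%, so small changes are read against that shift. A stricter count took only genes that moved at least 2-fold in the same direction in every genotype: 1388 were higher (7.12%) and 1473 lower (7.56%). The 4 genotypes' changes correlated with Pearson's r of 0.893 to 0.959 across genes, which share a pool and are not independent replicates.

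The response was then read in each genotype with genes chosen in the other 3 alone. From the arrays of WT, Tlr7-/- and Tlr9-/-, 4370 genes passed an adjusted p of 0.05 (limma) and moved at least 2-fold. In Tlr7/9-/-, which took no part in that choice, 4351 of them (99.6%) moved the same way and 3356 (76.8%) did so by at least 2-fold. The median ratio of its change to that of the others was 0.871. The same reading gave 99.8%, 99.9% and 99.6% with the same sign, and median ratios of 1.05, 1.09 and 0.931, when WT, Tlr7-/- and Tlr9-/- were held out. The ratio was below 1 for Tlr7/9-/- and Tlr9-/-, which share a slide, and above 1 for the other pair, which shares the other slide. The difference was not tested, and genotype and slide cannot be told apart in it. Of the genes chosen without Tlr7/9-/-, 2 moved at least 2-fold the opposite way in it, Orai2 and Sdc3.

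**Figure D1:**
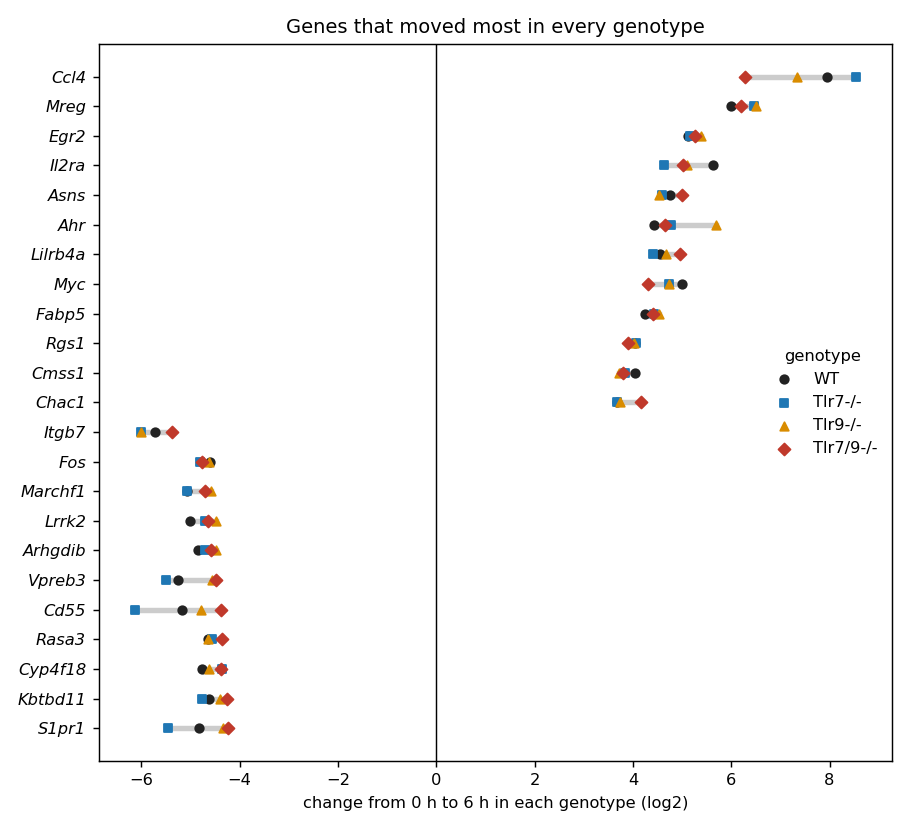
Change from 0 h to 6 h (log2, horizontal axis) of the 12 genes that rose most in every genotype and 11 of the 12 that fell most, ranked by the smallest of the 4 changes. Each symbol is 1 genotype and the grey bar spans the 4; Ccl4 spans 6.29 to 8.55, while Rgs1 spans 3.89 to 4.05.

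The genes with the largest rises in every genotype were led by Ccl4, a chemokine that activated lymphocytes secrete. Ccl4 lay at 0.38, 0.02, -0.65 and -0.18 at 0 h and at 8.32, 8.56, 6.69 and 6.11 at 6 h, a mean change of 7.53 ± 0.96 (SD, n = 4 genotypes, limma adjusted p = 4.626e-06). The 6 h values were lowest in Tlr9-/- and Tlr7/9-/-. Mreg, which encodes the organelle transport protein melanoregulin, lay at 0.12, 0.20, 0.01 and 0.01 at 0 h and at 6.12, 6.66, 6.52 and 6.21 at 6 h. Its changes stayed within 5.995 to 6.50, and it was well above background at 0 h on 3 of 4 arrays. Egr2, a zinc finger transcription factor induced by antigen receptors, lay at 0.05, -0.13, -0.10 and 0.22 at 0 h and at 5.17, 5.03, 5.29 and 5.49 at 6 h. Its change of 5.24 ± 0.12 (SD, n = 4) was a 37.7-fold rise, and the change in Tlr7/9-/- lay within the range of the other 3.

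Il2ra, which encodes the high-affinity subunit of the receptor for interleukin-2, rose by 5.09 ± 0.41 (SD, n = 4), and Ahr, the aryl hydrocarbon receptor, by 4.89 ± 0.55. At 0 h Il2ra was well above background on 3 arrays and Ahr on 2, so these changes start near the lower end of the measurement. Ahr has 2 probes, of which the brightest is given, and its change ran from 2.67 to 6.74 over all settings tried. Myc, the growth-promoting transcription factor, rose by 4.69 ± 0.28 with 4 values of 4.61, 4.74, 4.45 and 4.28 at 6 h. Fabp5, a fatty acid binding protein, lay at 4.37, 4.47, 4.37 and 4.43 at 6 h, and Rgs1, which shortens signals of chemokine receptors, at 4.11, 4.05, 4.04 and 3.99. These 2 genes varied least among the rises, with SDs of 0.11 and 0.08 between genotypes against mean changes of 4.41 and 4.01. Lilrb4a, an inhibitory receptor with a close paralog that shares its sequence, rose by 4.65 ± 0.24, and Cmss1 by 3.85 ± 0.14. These 12 genes were chosen among those that passed the limma test, and their adjusted p was 4.626e-06 or less, highest in Ccl4.

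The largest falls included adhesion and egress genes. Itgb7, the beta 7 integrin chain used for entry into gut tissue, lay at -0.16, -0.11, 0.29 and -0.21 at 0 h and at -5.88, -6.11, -5.71 and -5.59 at 6 h, a 54.8-fold fall. S1pr1, the receptor that guides lymphocytes out of lymphoid organs, fell by 4.72 ± 0.56 (log2, SD, n = 4). In both genes every 6 h value lay more than 4 below the 0 h value of the same genotype, which follows from the ranking by the smallest of the 4 changes. Fos, the AP-1 subunit known as an immediate early gene, was high in unstimulated cells relative to 6 h, with levels of 0.25, 0.18, -0.09 and 0.01 at 0 h and -4.35, -4.62, -4.72 and -4.76 at 6 h. Its fall of 4.70 ± 0.10 had the smallest spread among the 12 falls.

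Cd55, which protects cells from complement, fell by 5.12 ± 0.75 and spread most among these genes, from -6.13 in Tlr7-/- to -4.38 in Tlr7/9-/-. Marchf1, a ubiquitin ligase that removes MHC class II and CD86 from the surface, fell by 4.86 ± 0.25 on the brightest of its 2 probes. Over all settings tried its change ran from -5.12 to -2.60, so the size of the fall is uncertain. Regulators of small GTPases were also in this group: Arhgdib, which holds small GTPases in the cytosol, fell by 4.65 ± 0.16, and Rasa3, which switches off Ras proteins, by 4.56 ± 0.13. Lrrk2, a large kinase, fell by 4.71 ± 0.22, Vpreb3 by 4.95 ± 0.50, Cyp4f18, a cytochrome P450, by 4.53 ± 0.20, and Kbtbd11 by 4.51 ± 0.22. Kbtbd11 has 3 probes, of which the brightest is given, and its change ran from -4.79 to -1.79 over all settings tried. Every fallen gene of the 12 was well above background on all 4 arrays at 0 h and on all 4 at 6 h.

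Among genes known for rapid induction by antigen receptors, the members did not move as a block. Of 10 tested members of a list of EGR and NR4A factors and their partners, 6 rose (60%) and 2 fell (20%), against 29.3% and 30.9% of all genes. Their median change was 0.80 against -0.02 over all genes. Beside Egr2, the orphan nuclear receptors Nr4a1 and Nr4a2 rose by 2.87 and 3.10, while Egr1 rose by 0.73, with changes of 0.24 to 1.40. Ier5 and Ier2 fell by 1.17 and 0.76, with Ier2 no longer called under median centring (adjusted p = 0.0866). The AP-1 family split evenly in its 12 members, 6 up and 6 down (50% each, against 29.3% and 30.9% of all genes). Fos, Jun, Jund and Fosb fell by 4.70, 3.72, 1.84 and 1.30, whereas Maff, Batf, Fosl1, Fosl2 and Atf3 rose by 3.09, 3.04, 2.63, 2.42 and 2.17. Maff, Fosl1 and Atf3 were not well above background on any 0 h array, so their changes start at the lower end of the measurement and their size is uncertain. The size of the Fosl2 rise is uncertain too, since it ran from 1.14 to 6.47 over all settings tried.

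Feedback inhibitors of the MAP kinases also moved in opposite directions. Dusp6, a phosphatase of ERK, fell by 3.34 ± 0.97 (SD, n = 4) and Dusp1 by 1.85 ± 0.42, whereas Dusp4 rose by 3.11 ± 0.34. In the calcium and NFAT list (11 tested, 3 up or 27.3%, 5 down or 45.5%, against 29.3% and 30.9% of all genes) the store-operated channel gene Orai1 rose by 1.87, and the calcineurin regulator Rcan1 by 1.11. The receptor for inositol trisphosphate Itpr1 and the factor Nfatc2 fell by 2.38 and 2.23.

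In the NF-kB list, 6 of 14 members rose (42.9%, against 29.3% of all genes) and 4 fell (28.6%, against 30.9%). The risers were the precursor gene Nfkb1 (1.82 ± 0.60, SD, n = 4), the inhibitors Nfkbie, Nfkbib and Nfkbia (1.49, 1.38 and 0.69), and the induced regulators Traf1 and Tnfaip3. Bcl3, an atypical IkB protein, fell by 1.93 ± 0.76, and Cyld, a deubiquitinase that restrains the pathway, by 1.27. Every one of these genes had the same sign in all 4 genotypes, Tlr7/9-/- included.

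Among 14 cytokine and chemokine genes tested, 6 rose (42.9%, against 29.3% of all genes) and 4 fell (28.6%, against 30.9%). Ccl3, the neighbour of Ccl4, rose by 3.97 ± 0.43 (SD, n = 4) in changes of 3.72, 3.92, 4.60 and 3.64. Ltb, the membrane-anchored lymphotoxin beta, fell by 4.17 ± 0.28, and Il16 by 3.73 ± 0.43. Il2 was not well above background at 0 h on any array and was on all 4 at 6 h, with changes of 4.02, 3.45, 1.35 and 1.77 whose size is uncertain for that reason. Of the cytokine receptors, Il10ra fell by 3.76 and Il21r rose by 1.16.

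The surface molecules of an activated B cell gave 9 rises and 4 falls in 17 genes (52.9% and 23.5%, against 29.3% and 30.9% of all genes). Slc7a5, the light chain of the large neutral amino acid transporter, rose by 3.62 ± 0.10 (SD, n = 4), and the adhesion receptor Cd44 by 2.997 ± 0.45. The transferrin receptor Tfrc, which brings in iron, rose by 2.38 ± 0.22, and Cd83 by 1.91 ± 0.44. Icosl, the ligand of ICOS on helper T cells, fell by 3.79 ± 0.60, Slamf1 by 2.17, Cd40 by 1.52 and Cd80 by 1.16.

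**Figure D2:**
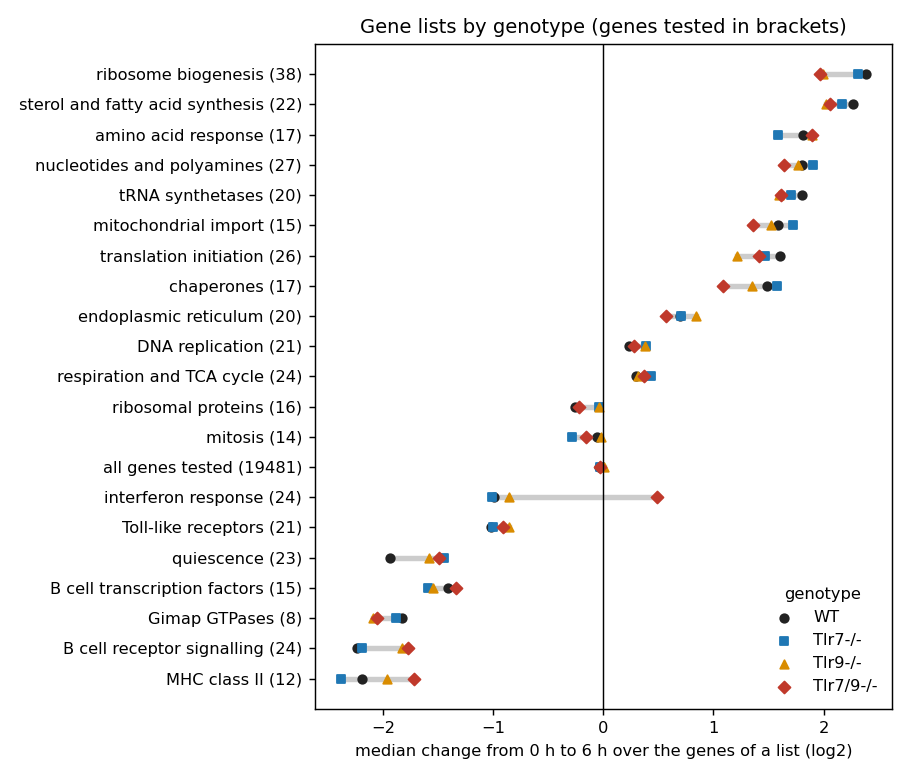
Median change from 0 h to 6 h (log2, horizontal axis) over the genes of each list in each genotype, with the number of genes tested in brackets. Lists for building ribosomes, lipids, nucleotides and proteins lie to the right in all 4 genotypes and lists for the B cell receptor and MHC class II to the left; the interferon response list is the one where Tlr7/9-/- (0.49) lies on the other side of 0 from WT, Tlr7-/- and Tlr9-/- (-0.99, -1.01 and -0.85).

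Genes that build ribosomes rose together. All 38 tested members of the ribosome biogenesis list were called higher, with a median change of 2.25 against -0.02 over all genes, and 35 of them rose at least 2-fold in all 4 genotypes, against 7.12% of all genes. Ncl, the abundant nucleolar protein nucleolin, lay at -0.43, -0.70, -0.85 and -1.16 at 0 h and at 2.89, 2.43, 2.78 and 2.63 at 6 h, a rise of 3.47 ± 0.30 (SD, n = 4). Every 6 h value was above 2 and every 0 h value below 0. The nucleolar GTPase gene Gnl3 rose by 2.98 ± 0.24, the RNA polymerase I subunit Polr1b by 2.91 ± 0.22 and Nolc1 by 2.71 ± 0.16. The smallest mean rise was that of the polymerase I initiation factor Rrn3, with changes of 1.29, 1.29, 0.14 and 0.87, and its call was lost within the slide of Tlr9-/- and Tlr7/9-/- (adjusted p = 0.121) and with arrays scaled to one spread (adjusted p = 0.169). The protein components of the ribosome did not share this rise. Of 16 Rpl and Rps genes, 2 rose (12.5%, against 29.3% of all genes) and 6 fell (37.5%, against 30.9%). Their median was -0.13, and it turned to 0.77 under median centring. These genes have many near-identical copies in the genome, so their values are uncertain.

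Nucleotide and polyamine synthesis rose in 24 of 27 genes and fell in none, with a median change of 1.78 and medians of 1.80, 1.90, 1.77 and 1.64 in the 4 genotypes. Uck2, a kinase that salvages uridine and cytidine, lay at 0.35, 0.29, -0.07 and 0.40 at 0 h and at 4.42, 4.59, 3.94 and 3.87 at 6 h. Odc1, the first enzyme of polyamine synthesis, rose by 3.91 ± 0.26 (SD, n = 4), and the serine and folate enzymes Shmt1, Mthfd2 and Shmt2 by 3.34, 3.32 and 3.30. Ctps, which makes CTP, rose by 3.07 ± 0.32. In Tlr7/9-/- Uck2 changed by 3.46 and Odc1 by 3.61. The change in Tlr7/9-/- was below that of each other genotype in 16 of the 27 genes and above in 1, and in the ribosome biogenesis list below in 22 of 38 and above in 1. Over all genes, with rises and falls together, it was below in 4971 and above in 4946 of 19481. Among all rises of at least 2-fold chosen in the other 3 genotypes, the median ratio of the change in Tlr7/9-/- to theirs was 0.888. A smaller rise in Tlr7/9-/- was therefore not particular to these 2 lists.

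Genes of the amino acid response, which are switched on through the factor ATF4 when amino acids are short or demand is high, rose in 16 of 17 members, with a median of 1.80 against -0.02 over all genes. Asns, which makes asparagine, lay at -0.07, 0.30, 0.07 and -0.01 at 0 h and at 4.68, 4.89, 4.60 and 4.98 at 6 h. Its rise of 4.72 ± 0.21 (SD, n = 4, limma adjusted p = 8.152e-07) was 26.3-fold, and all 4 values at 6 h lay within 0.4 of each other. Trib3, a pseudokinase induced by ATF4, rose by 4.01 ± 0.67, and Psat1, a serine synthesis enzyme, by 3.71 ± 0.12. Chac1, which degrades glutathione, and Pycr1, which makes proline, changed by 3.82 ± 0.24 and 3.23 ± 0.26. Neither was well above background on any 0 h array, so the size of these changes is uncertain. Atf4 itself rose by 1.24 ± 0.25 and Ddit3, a stress-induced factor downstream of it, by 1.23 ± 0.29. The aminoacyl-tRNA synthetases, several of which ATF4 also regulates, rose in 18 of 20 genes, led by Nars (2.41), Iars (2.33) and Aars (2.27), with a median of 1.61.

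The promoters of these groups were searched on both strands for the amino acid response site TGATGNAA and the E-box CACGTG, the site that MYC and its relatives bind. RefSeq promoters (GRCm38.p6, 250 bases before to 50 after the gene start) were matched by symbol for 10583 of the genes tested. The amino acid response site was present in 4 of 19 promoters of the amino acid response list (21.1%) and in 5 of 12 promoters of the tRNA synthetases (41.7%). Its share was 2.45% over promoters of genes tested and 3.97% over all promoters in the table. Among genes at least 2-fold higher in all 4 genotypes it was 2.91%, and among those at least 2-fold lower 2.28%, both near the share of genes tested. The E-box was present in 23.5% of promoters of the ribosome biogenesis list, 25.9% of the nucleotide and polyamine list and 33.3% of the tRNA synthetases. It was present in 18.7% of promoters of genes at least 2-fold higher in all 4 genotypes, 7.53% of those at least 2-fold lower, 9.88% of genes tested and 7.15% of all promoters. The promoters were not matched for base composition, and a match describes the letters, not binding. Among genes at least 2-fold higher, the other motifs were present at 2.45% (CRE, TGACGTCA), 1.36% (its variant TGACGTAA), 3% (AP-1, TGAGTCA, whose reverse strand reads TGACTCA), 1.91% (EGR, GCGTGGGCG) and 7.9% (kB, GGGNNTTCC). The shares in the same order were 2.94%, 0.748%, 3.9%, 1.15% and 7.25% over promoters of genes tested, and 1.79%, 0.499%, 5.2%, 0.612% and 5.82% over all promoters in the table.

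Shown for members that rose are the 210 bases before the gene start (GRCm38.p6), written 5′ to 3′ on the gene's strand, with amino acid response sites and E-boxes in capitals. Asns, Chac1 and Pycr1 represent the amino acid response, Aars holds both motifs, and Imp4, Impdh2 and Nme1 represent E-box promoters of the ribosome and nucleotide lists.
Asns (chr6:7693210-7693419, minus strand): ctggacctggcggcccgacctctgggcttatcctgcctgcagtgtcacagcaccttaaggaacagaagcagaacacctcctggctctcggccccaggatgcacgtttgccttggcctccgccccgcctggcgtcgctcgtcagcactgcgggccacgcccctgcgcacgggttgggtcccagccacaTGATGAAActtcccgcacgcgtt
Chac1 (chr2:119351032-119351241, plus strand): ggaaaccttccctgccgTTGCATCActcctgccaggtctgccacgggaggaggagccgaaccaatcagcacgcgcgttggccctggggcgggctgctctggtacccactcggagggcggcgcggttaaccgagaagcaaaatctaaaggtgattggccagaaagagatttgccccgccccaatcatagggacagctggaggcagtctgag
Pycr1 (chr11:120643749-120643958, minus strand): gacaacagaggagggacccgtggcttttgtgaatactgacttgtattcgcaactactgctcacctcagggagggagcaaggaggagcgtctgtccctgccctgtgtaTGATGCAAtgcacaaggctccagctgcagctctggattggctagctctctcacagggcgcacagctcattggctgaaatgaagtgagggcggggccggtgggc
Aars (chr8:111033632-111033841, plus strand): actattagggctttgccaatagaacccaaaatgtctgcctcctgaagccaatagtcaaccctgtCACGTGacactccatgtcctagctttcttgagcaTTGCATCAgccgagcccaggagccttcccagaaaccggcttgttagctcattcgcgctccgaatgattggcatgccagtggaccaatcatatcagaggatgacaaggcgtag
Imp4 (chr1:34439619-34439828, plus strand): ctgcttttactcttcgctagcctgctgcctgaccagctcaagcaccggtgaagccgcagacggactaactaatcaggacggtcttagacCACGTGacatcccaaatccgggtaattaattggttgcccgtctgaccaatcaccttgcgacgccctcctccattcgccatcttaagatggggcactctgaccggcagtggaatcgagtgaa
Impdh2 (chr9:108560226-108560435, plus strand): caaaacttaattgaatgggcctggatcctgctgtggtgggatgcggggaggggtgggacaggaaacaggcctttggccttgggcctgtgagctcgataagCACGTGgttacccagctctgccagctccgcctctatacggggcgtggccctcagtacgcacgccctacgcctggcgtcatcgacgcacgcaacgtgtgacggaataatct
Nme1 (chr11:93968026-93968235, minus strand): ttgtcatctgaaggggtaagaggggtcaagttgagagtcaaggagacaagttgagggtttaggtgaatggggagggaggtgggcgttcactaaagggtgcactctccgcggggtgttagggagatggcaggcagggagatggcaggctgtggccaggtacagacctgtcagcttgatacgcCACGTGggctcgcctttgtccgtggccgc
The site in Asns begins 23 bases before the start, that in Chac1 193 bases and that in Pycr1 103 bases before it. In Chac1 and Aars the amino acid response site reads on the opposite strand. In Aars the E-box lies 146 bases and the amino acid response site 112 bases before the start. The E-boxes of Imp4, Impdh2 and Nme1 begin 121, 110 and 29 bases before their starts. The last 4 genes rose by 2.27 (Aars), 1.14 (Imp4), 1.78 (Impdh2) and 1.82 (Nme1).

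Translation initiation followed the same direction, with 24 of 26 genes higher and a median of 1.49. Eif4a1, the RNA helicase of the cap-binding complex, rose by 2.48 ± 0.17 (SD, n = 4) and Eif2b3 by 2.44 ± 0.36. Eif3f and Eif3h, subunits of the same initiation factor, fell by 0.63 and 0.60, and both turned to rises of 0.17 and 0.27 under median centring. Chaperones rose in 16 of 17 genes and fell in none, led by the mitochondrial chaperones Hspa9 (2.66 ± 0.10) and Hspd1 (2.46 ± 0.33). Mitochondrial import rose in 14 of 15, led by Timm8a1 (2.90) and Tomm5 (2.30). Tomm34 fell by 0.47, and rose by 0.27 under median centring. Respiration and the TCA cycle moved less, with a median of 0.30. Of 24 genes 12 were higher (50%, against 29.3% of all genes) and 2 lower (8.33%, against 30.9%). Cytochrome c (Cycs) and the TCA enzyme subunit Idh3a led with 1.57 and 1.50.

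Sterol and fatty acid synthesis rose in 19 of 22 genes and fell in 1, with a median of 2.14, the second highest of the lists plotted. Idi1, an enzyme of the mevalonate pathway, lay at -0.11, 0.01, -0.28 and 0.03 at 0 h and at 3.62, 3.68, 3.90 and 3.81 at 6 h, a rise of 3.84 ± 0.23 (SD, n = 4). Sqle, the squalene epoxidase, rose by 3.35 ± 0.09, Hmgcs1 by 2.96 ± 0.13 and Cyp51 by 2.95 ± 0.15. In each of these 4 genes the 4 genotypes differed by less than 0.6 in their changes, and the groups at 0 h and 6 h did not overlap. Srebf2, the factor that drives cholesterol synthesis genes, rose by 1.06. Scd1, which desaturates fatty acids, was the called member that fell (by 0.98 ± 0.36), and its call was lost under median centring (adjusted p = 0.332).

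Of 18 genes of glycolysis 10 were higher (55.6%, against 29.3% of all genes) and 7 lower (38.9%, against 30.9%). Hk2, the inducible hexokinase, rose by 3.22 ± 0.34 (SD, n = 4), Ldha, which makes lactate, by 2.53 ± 0.16, and Pfkp by 2.09 ± 0.24. The glucose transporter gene Slc2a3 fell by 0.90 ± 0.15, with its call lost under median centring (adjusted p = 0.0542). Of 20 genes of the endoplasmic reticulum 15 rose (75%, against 29.3% of all genes) and 1 fell (5%, against 30.9%). Hspa5, the chaperone BiP, rose by 1.86 ± 0.16 and Dnajb9 by 1.72, and Herpud1 fell by 0.46, turning to a rise of 0.27 under median centring.

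Of 21 genes of DNA replication 12 rose (57.1%, against 29.3% of all genes) and 3 fell (14.3%, against 30.9%), with a median of 0.33; Mcm6, part of the replicative helicase, rose by 1.67 ± 0.12 (SD, n = 4) and Pcna, the sliding clamp of the DNA polymerases, by 1.48 ± 0.26. Rrm2, a subunit of ribonucleotide reductase, fell by 1.09 ± 0.11. Of 14 genes of mitosis 1 rose (7.14%, against 29.3% of all genes) and 4 fell (28.6%, against 30.9%). Mki67, the proliferation marker Ki-67, fell by 1.66 ± 0.21. Among regulators of cycle entry, Cdk4 and its partner Ccnd2 rose by 1.98 and 1.93, while Ccnd3 and E2f2 fell by 1.57 and 3.46.

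Genes known for holding lymphocytes at rest fell. In the quiescence list, 19 of 23 genes were called lower and 2 higher, with a median of -1.49. Cdkn2d, an inhibitor of CDK4 and CDK6, lay at -0.07, 0.10, 0.07 and -0.21 at 0 h and at -4.11, -4.06, -3.82 and -4.08 at 6 h. It fell by 3.99 ± 0.13 (SD, n = 4), and no array at 6 h came within 3 of its genotype's 0 h array. Klf2, a factor that keeps lymphocytes quiescent and promotes S1pr1, fell by 3.68 ± 0.69, Tsc22d3 by 2.96 ± 0.50 and Ddit4, an inhibitor of mTORC1, by 2.90 ± 0.34. Slfn2, which is known to maintain quiescence, was called higher (0.84 ± 0.49). Mxd4, which opposes MYC at E-boxes, fell by 2.58 ± 0.20.

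The components that receive and pass on the antigen receptor signal were lower at 6 h. Of 24 such genes, 19 fell and 1 rose, with a median of -1.91, and 16 fell at least 2-fold in all 4 genotypes, against 7.56% of all genes. Bank1, an adaptor of B cells, lay at -0.04, 0.003, 0.07 and -0.06 at 0 h and at -4.17, -4.30, -3.68 and -3.32 at 6 h. The kinase Syk fell by 3.28 ± 0.46 (SD, n = 4) and the inhibitory Fc receptor Fcgr2b, which binds IgG complexes, by 2.90 ± 0.16. Cd72, an inhibitory co-receptor, was the member that rose (0.53 ± 0.08). The complement receptor gene Cr2 fell by 3.18 with a wider spread, -4.16, -3.86, -1.97 and -2.72 in the 4 genotypes.

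Transcription factors of B cell identity were called lower in 14 of 15 genes, with a median of -1.57. Bcl11a, Ets1 and Ikzf1 fell by 3.67 ± 0.46, 3.19 ± 0.50 and 2.22 ± 0.58 (SD, n = 4). Pax5 fell by 1.52 ± 0.46, and Irf8 was the member called higher (0.49 ± 0.32). The call of Irf8 was lost in 4 of 18 settings, the main one counted among the 18. These were without WT (limma adjusted p = 0.0508), without Tlr7-/- (0.0691), within the slide of Tlr9-/- and Tlr7/9-/- (0.172) and with arrays scaled to one spread (0.0509). All 8 Gimap GTPase genes fell, by 3.32 in Gimap7 at the most. In the MHC class II list 11 of 12 genes fell and none rose, with a median of -2.01. That list also holds Marchf1, the ligase that removes MHC class II from the surface. Marchf1 is counted among the 11, and its fall was the largest in the list. Genes that edit the peptide in the groove and the classical chains are given side by side: H2-Ob fell by 3.69 ± 0.69, H2-Oa by 3.65 ± 0.43 and H2-DMb1 by 3.46 ± 0.57, against 0.99 ± 0.48 for H2-Ab1 and 0.83 ± 0.30 for H2-Aa. The calls of H2-Ab1 and H2-Aa were lost under median centring (adjusted p = 0.597 and 0.54), and the difference between the groups was not tested.

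Homing genes other than Itgb7 and S1pr1 divided. Itga4, the integrin partner of the beta 7 chain, fell by 3.35 ± 0.22 (SD, n = 4), and the follicle-homing receptor Cxcr5 by 1.40 ± 0.10. Ccr7, which draws activated B cells to the T cell zone, rose by 2.60 ± 0.64. Its levels were 0.14, -0.06, -0.23 and -0.09 at 0 h and 3.03, 3.29, 1.66 and 2.19 at 6 h, without overlap. Among Toll-like receptors and their partners, 12 of 21 fell (57.1%, against 30.9% of all genes) and 3 rose (14.3%, against 29.3%). The surface receptors Tlr1 and Tlr6 fell by 3.12 ± 0.38 and 2.46 ± 0.28, and Slc15a4, an endosomal transporter that TLR7 and TLR9 signals need, by 2.13 ± 0.38. Unc93b1, which carries both receptors to endosomes, fell by 1.06 ± 0.06, a call lost under median centring (adjusted p = 0.167). Tlr7 changed by 0.53, 0.71, 0.76 and 0.70 in the 4 genotypes.

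Of 17 apoptosis genes 8 rose (47.1%, against 29.3% of all genes) and 7 fell (41.2%, against 30.9%). The protective genes Bcl2l1 and Bcl2a1d rose by 2.56 ± 0.52 and 3.12 ± 0.53 (SD, n = 4), the latter with near-identical paralogs that its probe may not separate. The protective gene Bcl2 fell by 1.41 ± 0.31. Bbc3 and Bax, which drive cell death, rose by 2.36 and 1.64, and Casp9 and Bmf fell by 2.15 and 2.14. Of genes tied to antibody secretion, Irf4 rose by 2.67 ± 0.32, and Mzb1, a chaperone of antibody assembly, fell by 3.08 ± 0.17.

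The response of Tlr7/9-/- was next tested against the mean response of the other 3 genotypes. No gene passed (0 of 19481, or 0%, limma adjusted p, smallest 0.2325), and 837 had an unadjusted p under 0.05, of which 558 were higher in Tlr7/9-/-. That test has 2 residual degrees of freedom, and Tlr7/9-/- enters it as 1 pair of arrays. A fit with a genotype left out has fewer, and without Tlr9-/- its residual error rests on the difference between WT and Tlr7-/- alone. The result turned on Tlr9-/-: without it, 422 genes (2.12%) passed against WT and Tlr7-/-, 293 higher and 129 lower in Tlr7/9-/-. In that fit Tlr7/9-/- is the one genotype on its slide and WT and Tlr7-/- share the other, so slide and genotype cannot be told apart in the 422 genes. Of these, 420 had a value in Tlr9-/-, and in 376 the change in Tlr9-/- lay beyond both WT and Tlr7-/- on the side of Tlr7/9-/-. Without WT or without Tlr7-/- no gene passed, and 577 and 350 genes had an unadjusted p under 0.05.

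**Figure D3:**
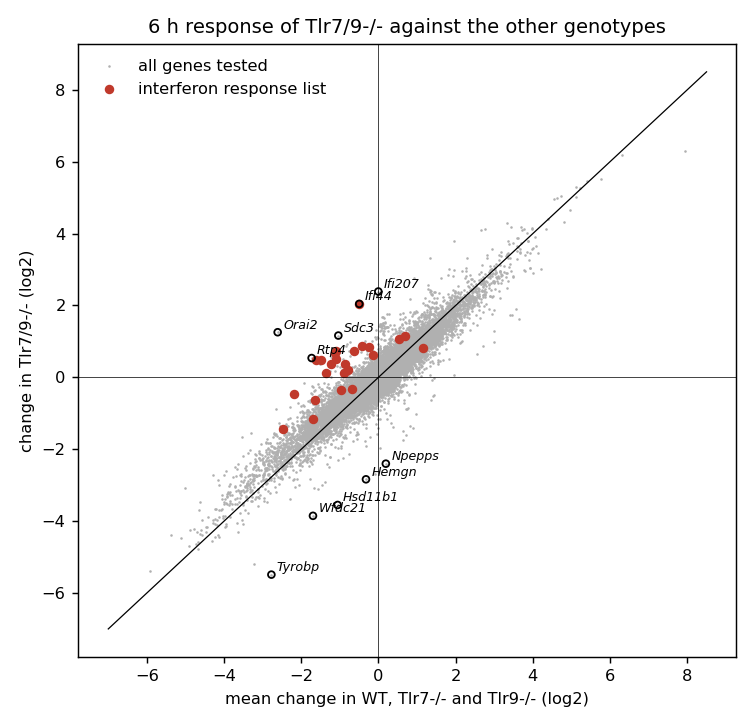
Change in Tlr7/9-/- (log2, vertical axis) against the mean change in WT, Tlr7-/- and Tlr9-/- (log2, horizontal axis); each grey point is 1 of 19481 genes, red points are the interferon response list, circled points are the 5 largest differences in each direction, and the diagonal marks equal changes. Most points lie along the diagonal, and 22 of the 24 red points have a change in Tlr7/9-/- above that in each other genotype.

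The 5 largest differences in each direction are given as not passing. Higher in Tlr7/9-/- were Orai2 (3.87 ± 0.43, SE), Ifi44 (2.54 ± 0.23), Ifi207 (2.39 ± 0.24), Rtp4 (2.27 ± 0.32) and Sdc3 (2.20 ± 0.35), with adjusted p-values of 0.261, 0.233, 0.246, 0.34 and 0.39. Lower were Tyrobp (-2.71 ± 0.22), Npepps (-2.59 ± 0.23), Hemgn (-2.51 ± 0.30), Hsd11b1 (-2.49 ± 1.24) and Wfdc21 (-2.16 ± 1.60), with adjusted p-values of 0.233, 0.233, 0.278, 0.948 and 0.948. Orai2, a partner of the ORAI1 calcium channel, lay at -0.14, 0.12, 0.09 and -3.04 at 0 h and at -3.01, -2.88, -1.88 and -1.79 at 6 h, and the value that stood apart was the 0 h array of Tlr7/9-/-. A second Orai2 probe gave -0.19, -0.03, 0.22 and -0.24 at 0 h and -1.88, -1.99, -1.38 and -1.39 at 6 h, with a fall in all 4 genotypes. Npepps, a cytosolic aminopeptidase, was likewise high on the 0 h array of Tlr7/9-/- alone (0.06, 0.09, -0.26 and 2.71), and its second probe read -0.25, -0.05, 0.55 and -0.21 there. Tyrobp, a signalling adaptor of myeloid and NK cells, lay at -0.04, -0.31, -0.08 and 2.70 at 0 h and at -3.01, -3.002, -2.74 and -2.78 at 6 h, and Hemgn, a gene of red cell precursors, at 0.49, 0.49, 0.27 and 3.27 and -0.04, -0.04, 0.36 and 0.44. Both have 1 probe and were high on the same 0 h array. The summed Cy5 signal of red cell lineage markers ran from 60800 to 175000 over the 0 h arrays, and that of myeloid markers from 28500 to 34100. Median changes of the red cell list were -1.10, -1.57, -1.52 and -1.35, and those of the myeloid list -1.68, -1.98, -1.61 and -1.96. In both lists Tlr7/9-/- lay inside the range of the other genotypes. The part of other cells in the Tyrobp and Hemgn values was not tested. Hsd11b1, an enzyme that activates glucocorticoids, had changes of -0.22, 0.16, -3.11 and -3.55 and Wfdc21 changes of -0.27, -0.45, -4.37 and -3.85, so in both the low values were those of Tlr9-/- and Tlr7/9-/-. Sdc3, a cell surface proteoglycan, lay at -0.28, 0.13, -0.04 and -0.05 at 0 h and at -0.90, -1.37, -1.04 and 1.11 at 6 h, where Tlr7/9-/- was the high value.

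Ifi44, Ifi207 and Rtp4 are genes that type I interferon induces, and each was highest in Tlr7/9-/- at 6 h. Ifi44 lay at 0.06, -0.10, -0.58 and 0.48 at 0 h and at -0.68, -0.49, -0.94 and 2.52 at 6 h. The 6 h array of Tlr7/9-/- was the single high value among the 8. Of the 24 members of the interferon response list, 20 fell in WT, Tlr7-/- and Tlr9-/- alike, and 14 of those 20 rose in Tlr7/9-/-. The change in Tlr7/9-/- was above that of each other genotype in 22 of 24 genes, against 25.4% of all genes tested. List medians were -0.99, -1.01, -0.85 and 0.49. At 0 h the list's median level was 0.22 in Tlr7/9-/- and -0.21 to 0.08 in the others; at 6 h it was 0.57 against -1.02 to -0.87, and the level was highest in Tlr7/9-/- in 15 of the 24 genes at 0 h and in 23 at 6 h.

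Irf7, the factor that amplifies interferon production, lay at -0.02, -0.49, -0.41 and -0.07 at 0 h and at -1.56, -1.92, -1.92 and 0.42 at 6 h. The difference of its change in Tlr7/9-/- was 1.98 ± 0.19 (SE, limma adjusted p = 0.233). Mx1, an antiviral GTPase, lay at 0.15, 0.16, -0.36 and 0.38 at 0 h and at -1.08, -0.92, -1.37 and 1.12 at 6 h, with a difference of 1.85 ± 0.20 (adjusted p = 0.253). The groups at 6 h did not overlap in either gene, since WT, Tlr7-/- and Tlr9-/- were all below -0.9 and Tlr7/9-/- was above 0.4. Oas1a fell by 1.76 on average, to -1.97, -2.10, -2.73 and 0.02, and Ifit3 lay at -1.61, -1.94, -1.68 and 0.91 at 6 h. Stat2 and Irf9, which carry the interferon signal to the nucleus, fell in all 4 genotypes, by 1.56 ± 0.31 and 0.82 ± 0.33 (SD, n = 4), and the call of Irf9 was lost under median centring (adjusted p = 0.493). The RNA sensor gene Ifih1 took another order, with 6 h levels of 1.92, 2.12, -0.32 and 1.02, highest in WT and Tlr7-/-, and was the exception among the 24 at 6 h. Unadjusted p-values were under 0.05 in 19 of 24 genes of the list and adjusted ones in none. With Tlr9-/- left out 15 of 24 passed, all higher in Tlr7/9-/-, and under median centring with all arrays Ifi44, Ifi207, Rtp4, Ifit3, Irf7 and Mx1 were among 12 genes that passed. In 9 of the 15 the change in Tlr9-/- lay on the side of Tlr7/9-/-, and slide and genotype cannot be told apart in these 15 calls. The residual error of the fit without Tlr9-/- rests on WT and Tlr7-/- alone. The share of probes above background was highest on the 6 h array of Tlr7/9-/- (56.4%), and its part in the interferon list values was not tested.

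**Figure D4:**
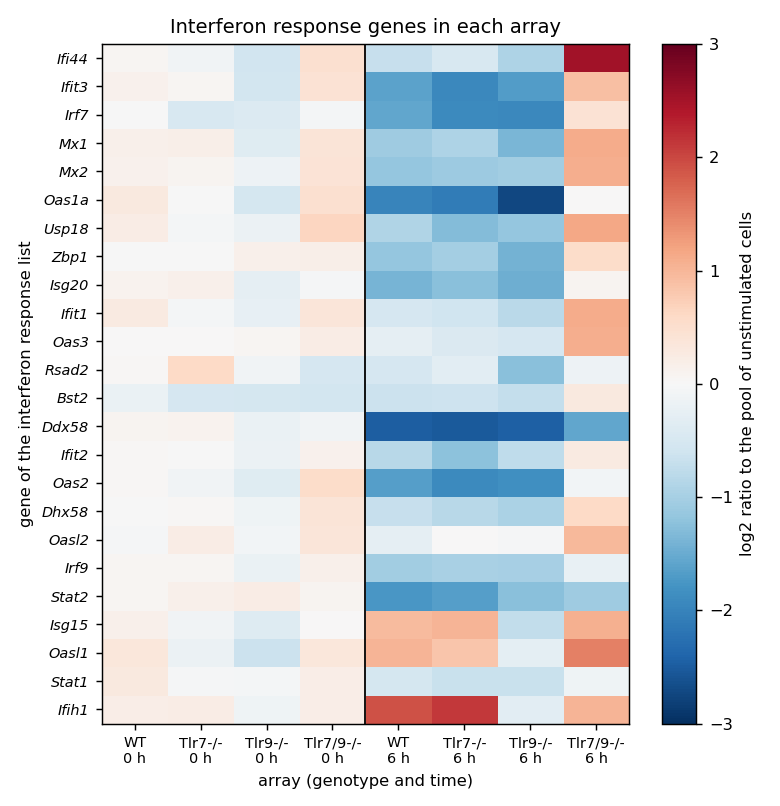
Level of each of the 24 interferon response genes (rows, ordered by the difference of Tlr7/9-/-) in each of the 8 arrays (columns), as the log2 ratio to the pool of unstimulated cells on a blue to red scale. The column of Tlr7/9-/- at 6 h is the red one for most rows, where WT, Tlr7-/- and Tlr9-/- at 6 h are blue; Ifi44 reads 2.52 there.

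A part of the early response divided WT and Tlr7-/- from Tlr9-/- and Tlr7/9-/-, the genotypes that lack TLR9 and that lie on the other slide. In a comparison added after the data were seen, 170 of 19481 genes (0.873%) had a different change on the 2 slides (limma, adjusted p under 0.05), 93 higher and 77 lower on the slide of Tlr9-/- and Tlr7/9-/-, and 36 had opposite signs on the slides. An unadjusted p under 0.05 was reached by 3068 genes. No gene passed by limma with the processed signals of the scanner software, the authors' log ratios or arrays scaled to one spread, where 2203, 2206 and 2248 genes had an unadjusted p under 0.05. The slide and the loss of TLR9 cannot be told apart. Lta, which encodes lymphotoxin alpha, had changes of 1.04, 0.85, -1.77 and -1.96, and Ebi3, a subunit shared by several interleukins, had changes of 2.01, 2.19, -0.12 and -0.64. Tnf had changes of 2.81, 2.44, 0.64 and 0.07, and in Tnf and Il2 the changes of WT and Tlr7-/- were above those of Tlr9-/- and Tlr7/9-/-. The activation molecule Cd86 ran the other way with -0.81, -0.52, 1.46 and 1.28, as did Rgs2 with -1.53, -1.996, 1.32 and 0.98.

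**Figure D5:**
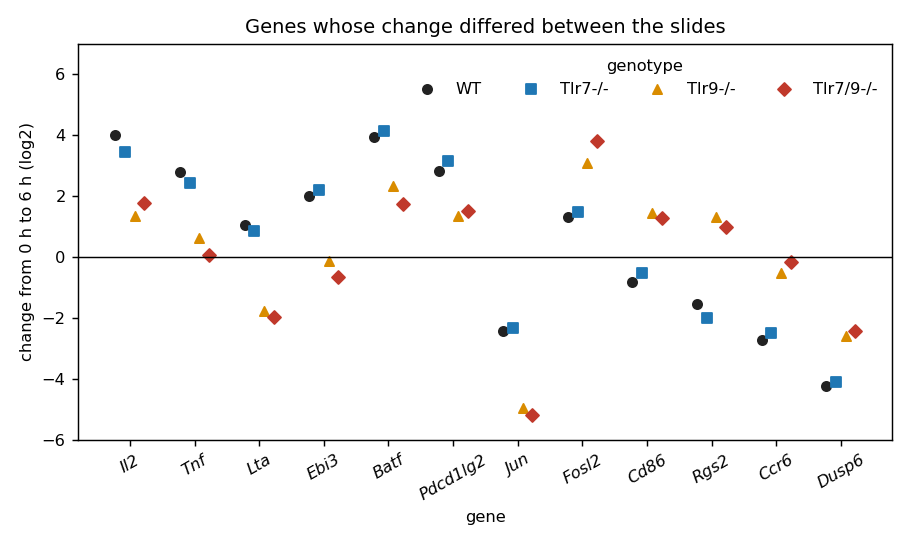
Change from 0 h to 6 h (log2, vertical axis) of 12 listed genes whose change differed between the slides; each symbol is 1 genotype. In every gene WT and Tlr7-/- lie close together and apart from Tlr9-/- and Tlr7/9-/-, for example Jun at -2.43 and -2.32 against -4.95 and -5.19.

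Other shared genes differed between the slides in size and not in direction. Jun lay at -0.20, -0.04, -0.17 and -0.03 at 0 h and at -2.63, -2.36, -5.12 and -5.22 at 6 h, so it fell in every genotype but further in the latter pair (difference -2.70 ± 0.16, SE, adjusted p = 0.008044). Fosl2, another AP-1 subunit, rose by 1.30, 1.47, 3.10 and 3.80, and Batf, which pairs with JUN proteins, by 3.95, 4.14, 2.33 and 1.74. The mean change of Fosl2 ran from 1.14 to 6.47 over all settings tried, so these sizes are uncertain for Fosl2. The chemokine receptor Ccr6 had changes of -2.73, -2.51, -0.52 and -0.16, and Dusp6 of -4.24, -4.12, -2.58 and -2.41. The call of the shared fall of Ccr6 was lost in 7 of 18 settings, the main one counted among the 18. Its adjusted p was 0.0921 without WT, 0.108 without Tlr7-/-, 0.12 within the slide of Tlr9-/- and Tlr7/9-/-, 0.0983 under median centring, 0.0533 with the processed signals, and 0.0536 both with the authors' table and with no filter. Pdcd1lg2, a ligand of PD-1, rose by 2.82, 3.15, 1.35 and 1.51.

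Markers of other cell types were measured and moved with the response. B cell markers fell in 9 of 10 genes (median -2.53), and all 10 were well above background on every array at 0 h and at 6 h. So were 13 of 14 myeloid and 8 of 10 T cell markers on every 0 h array, so this reading does not single out B cells. Markers of macrophages, monocytes and neutrophils fell in 13 of 14 (median -1.67), of T cells in 9 of 10 (-0.72), of NK cells in 6 of 7 (-0.97), of dendritic cells in 5 of 7 (-0.59) and of the red cell lineage in 7 of 7 (-1.43). These counts stand beside falls in 30.9% of all genes tested. The summed Cy5 signal of the myeloid list was 28500 to 34100 at 0 h and 9110 to 12400 at 6 h, against 286000 to 358000 and 55200 to 81300 for the B cell list. The sums were 4010 to 4350 and then 2230 to 2460 for T cells, 3150 to 5110 and 1230 to 1480 for NK cells, 40200 to 46900 and 22100 to 40900 for dendritic cells, and 60800 to 175000 and 27700 to 63500 for the red cell lineage. Of the markers listed, Bcl11b, Themis, Fcgr1, Klrk1, Xcr1, Hbb-bt and Epb42 were not among the genes tested. Ahsp, a red cell marker that was tested only under the array's own name, fell by 2.70 and is not in these counts and sums. In these mixed RNA samples, fewer cells of a type and less RNA per cell cannot be told apart, and the part of other cells in the falls was not tested.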

How the data were processed

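The deposited scanner intensities, read by Agilent Feature Extraction 10.1.1.1 per the file headers, were the mean foreground and median background of each spot in Cy5 (sample) and Cy3 (pool). Control spots and spots with an outlier flag were left out. Intensities were corrected with normexp (offset 50) and normalized by loess within each array in limma 3.58.1 (R 4.3.3). The log10 ratios the authors deposited were an alternative. A probe had to be well above background in either colour on 4 of 8 arrays, and the brightest probe stood for a gene; 19481 features were tested, 13420 with a RefSeq symbol. The fit was genotype plus time, with Benjamini-Hochberg adjustment over all features, and it was tested on simulated data. Tlr7/9-/- was compared with the other genotypes by an interaction term.

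The number of arrays limits the precision. Named genes were the 12 largest rises and falls by the smallest of the 4 changes, members of 44 lists (665 of 705 genes tested), and the 5 largest Tlr7/9-/- differences each way. The members and lists were chosen with earlier results of these data known, and the comparison of slides was added after the data were seen. Some genes that met the rule are not reported here. The sources do not say whether arrays of a slide share other handling.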

Additional observations from a re-analysis of the deposited data

Results flagged for a closer look

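With 4 genotypes per gene, a change was singled out where its gap to the nearest other genotype took up most of the range. Over all genes tested, 1046 (5.37%) met that rule, and 13 of 184 named genes did, so some of the cases named here are of the kind chance gives. In Tlr7/9-/- these were Chac1 (4.17), Ifi207 (2.39), Ifi44 (2.04), Irf7 (0.49), Mx1 (0.74), Oas1a (-0.47), Itga4 (-3.02), Mthfd2 (2.83), Npepps (-2.40), Slc15a4 (-1.56) and Tyrobp (-5.49), each a change from 0 h to 6 h on the log2 scale. In Tlr9-/- they were Cd72 (0.65) and Tlr1 (-2.55). Ifi44, Ifi207, Npepps and Tyrobp had been named as large differences of Tlr7/9-/-, so their flags are no separate result. Among the list medians, the interferon response list (0.49) and the dendritic cell markers (-0.32) stood apart in Tlr7/9-/- and the NFAT list (-0.48) in Tlr9-/-.

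The change on the slide of Tlr9-/- and Tlr7/9-/- minus that on the slide of WT and Tlr7-/- passed the test of the difference (limma adjusted p under 0.05) in 16 named genes. It was positive in Rgs2 (2.91), Ccr6 (2.27), Fosl2 (2.06), Cd86 (2.03), Dusp6 (1.68) and H2-Ob (1.17). It was negative in Wfdc21 (-3.75), Hsd11b1 (-3.30), Lta (-2.81), Jun (-2.70), Ebi3 (-2.48), Tnf (-2.27), Il2 (-2.17), Batf (-2.01), Pdcd1lg2 (-1.56) and Icosl (-1.04). Slide and loss of TLR9 cannot be told apart in these 16 genes. Several of them were named because they passed this comparison, so the count is no separate result.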

How the results depend on the processing

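The 11720 calls stayed within 1.5 times under every alternative tried except a 2-fold limit, which left 4193 (2031 higher, 2162 lower). Median centring gave 9324 higher and 3162 lower, 12 calls for Tlr7/9-/-, 749 for the slides, and 3080 higher and 868 lower by at least 2-fold in all 4 genotypes. That last pair of counts became 741 and 876 with arrays scaled to one spread, 284 and 427 with a limit of 2 (log2), and 2948 and 2975 with a limit of 0.5. The Tlr7/9-/- comparison gave 0 to 422 calls with a genotype left out, the latter without Tlr9-/-. The slide comparison gave 30 calls with the foreground alone, 23 with no filter, and 0 with scaled arrays, with the processed signals and with the authors' table. Signs turned under median centring for Eif3f (0.17), Eif3h (0.27), Herpud1 (0.27), Tomm34 (0.27), Lta (0.15), Npepps (0.25), Rgs2 (0.48) and Tlr9 (0.25), of which the first 4 are called changes; the cause was not tested. They turned within the slide of WT and Tlr7-/- for Cd86 (-0.66), Ifi207 (-0.093), Ifi44 (-0.57), Lta (0.95) and Npepps (0.10), and within the other for Ebi3 (-0.38), Rgs2 (1.15) and Sdc3 (0.081). With each genotype left out in turn they turned for Rgs2 (-0.85 without Tlr9-/- to 0.26 without Tlr7-/-, and 0.10 without WT), Cd86 (-0.016 without Tlr9-/- to 0.74 without WT), Ifi207 (-0.0035 without Tlr7/9-/- to 0.88), Ifi44 (-0.50 without Tlr7/9-/- to 0.43), Lta (-0.96 to 0.039 without Tlr7/9-/-) and Npepps (-0.73 to 0.19 without Tlr7/9-/-). The fit pairs the 2 times within each genotype, and without that block the calls were 5829 higher and 6230 lower. With 1 array per genotype and time, a fault of 1 array cannot be told apart from its genotype.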
